A study of Mus musculus with 18 samples.

Results

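The suppressors of cytokine signalling (SOCS) are 8 related genes in the mouse, Socs1 to Socs7 and Cish, whose products damp signals from cytokine receptors. They were taken by gene symbol from the deposited expression table, where all 8 were found among 16614 genes, and all 8 passed the filter on low counts that left 11989 genes for testing. RNA had been sequenced from dendritic cells grown from mouse bone marrow (BMDC) for 7 to 10 days in 100 ng/ml Flt3L plus 20 ng/ml GM-CSF, and enriched for cells bearing XCR1, a receptor of type 1 conventional dendritic cells (cDC1), by sorting or with magnetic beads. The groups were 5 KO LPS, 5 WT LPS, 4 KO Control and 4 WT Control libraries, where LPS is lipopolysaccharide, which Toll-like receptor 4 recognises on bacteria. The labels leave out which gene is deleted in KO, the age of the mice and the dose and duration of LPS, and they do not say which purification each sample had or whether replicates came from separate animals, so p-values measure the spread between these samples.

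Cytokine receptors signal through Janus kinases (JAK), which phosphorylate STAT transcription factors. STATs switch on SOCS genes, and SOCS proteins then bind phosphorylated receptors or kinases through an SH2 domain and recruit a ubiquitin ligase through a C-terminal SOCS box, which closes a negative feedback loop. SOCS1 and SOCS3 also carry a short region that blocks the catalytic site of JAKs. In textbook accounts Socs3 is a target of STAT3 and limits signalling through gp130, the shared receptor chain of the IL-6 family, Cish and Socs2 are targets of STAT5, and Socs1 is induced by interferons and restrains them. The series title names the balance between STAT5 and STAT3 as its subject.

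Stretches near the start sites of Socs3, Cish and Socs1 are shown because Socs3 and Cish changed most with LPS and differed between genotypes, and because Socs1 held matches to the interferon motif. RefSeq windows of 300 bases (250 before and 50 after a gene's start, build GRCm38.p6) were found for 4 of the 8 members, namely Socs1, Socs3, Socs4 and Cish. Capitals mark TTCNNNGAA, the general STAT-binding motif, which reads the same on both strands, in Socs3 and Cish. In Socs1 they mark an interferon response motif, GAAA followed by any 2 bases and GAAA again, which was searched on both strands.
Socs3 promoter, chr11:117969467-117969566, minus strand: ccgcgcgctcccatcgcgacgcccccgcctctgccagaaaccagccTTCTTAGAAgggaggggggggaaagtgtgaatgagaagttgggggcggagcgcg
Cish start, chr9:107296654-107296683, plus strand: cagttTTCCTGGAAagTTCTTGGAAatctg
Socs1 promoter, chr16:10785567-10785666, minus strand: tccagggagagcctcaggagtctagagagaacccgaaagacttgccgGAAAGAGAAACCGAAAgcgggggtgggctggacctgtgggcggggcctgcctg

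The Cish window held 2 matches to the STAT motif in tandem, the first beginning at the RefSeq start itself, in annotated 5′ exon sequence. The Socs3 window held 1 match, whose first base lay 154 bases before the start and outside annotated exons. At least 1 match was present in 8.30% of all 32851 windows and at least 2 in 0.457%. Among the 12267 windows of tested genes these shares were 6.92% and 0.408%. The Socs1 window held 2 overlapping matches to the interferon motif, beginning 83 and 77 bases before the start and outside annotated exons. That motif occurred at least once in 3.44% of all windows and at least 2 times in 0.225%, and in 3.37% and 0.334% of windows of tested genes. The Socs4 window held a match to neither motif. These matches describe the letters of the windows and no binding was measured.

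Library totals lay between 25590104 and 27375189 estimated counts, and levels are given as CPM, estimated counts relative to the library total after TMM scaling. All 9 listed cDC1 markers were detected, with summed levels of 5569 to 6425 CPM in KO LPS, 5891 to 7268 CPM in WT LPS, 6924 to 8078 CPM in KO Control and 7557 to 7868 CPM in WT Control. They did not move together, with Xcr1 at a mean of 281 CPM in KO LPS, 428 CPM in WT LPS, 109 CPM in KO Control and 175 CPM in WT Control, and Itgae at 38.7, 58.5, 226 and 269 CPM in the same order. Tlr3 was also lower with LPS, at 77.6, 71.3, 346 and 329 CPM, and Naaa was at 514, 986, 1240 and 1120 CPM. Xcr1 itself, on which the cells had been purified, had a KO over WT log2 fold change of -0.61 with LPS and -0.68 in Control, Itgae had -0.60 and -0.25, Naaa had -0.94 and 0.15, and Cadm1 had 0.46 and 0.20, and the part of these differences in the genotype comparisons was not tested. Of 7 neutrophil markers, the summed level was under 2 CPM in all libraries but 2. These were WT LPS replicate 5 at 79.0 CPM and WT Control replicate 4 at 24.2 CPM, and the part of these cells in any result was not tested. In bulk RNA, fewer cells that express a gene and less of its RNA per cell cannot be told apart.

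LPS changed which SOCS genes dominated. In Control cells of both genotypes Socs7, Socs4, Socs5 and Socs6 made up most of the family's transcripts, and with LPS Socs3, Socs2 and Socs1 did. On the per-length TPM scale deposited by the authors, Cish and Socs1 to Socs3 together held 81.3% ± 1.95 of the family's summed TPM in KO LPS and 22.7% ± 2.06 in KO Control (SD, n = 5 and 4). The same share was 83.7% ± 3.04 in WT LPS and 19.8% ± 3.62 in WT Control. The lowest LPS library was at 78.9% and the highest Control library at 24.8%, so treatments were far apart and genotypes overlapped within a treatment.

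**Figure D1:**
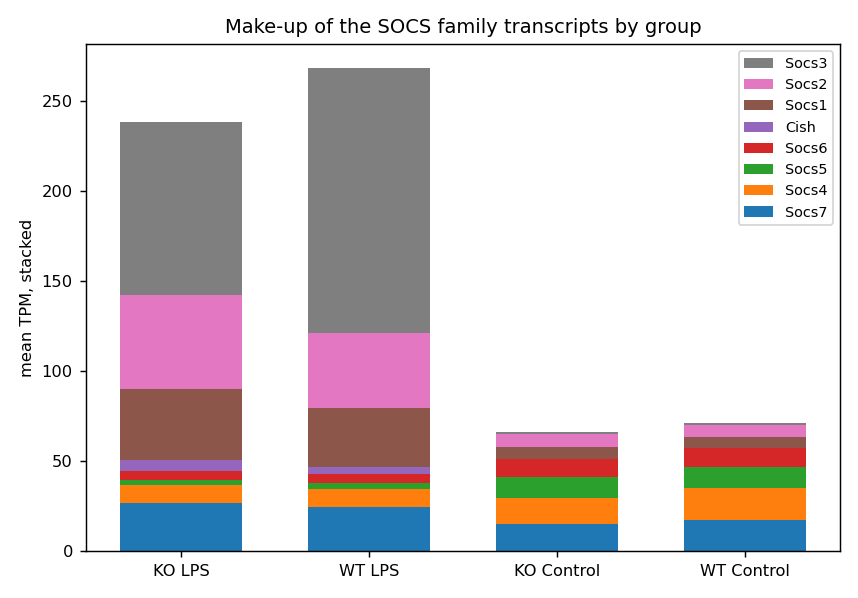
Mean TPM of the 8 SOCS family genes (y axis), stacked for each group (x axis). Both LPS bars are made up mostly of Socs3, Socs2 and Socs1, and the Control bars mostly of Socs7, Socs4, Socs5 and Socs6; the Socs3 segment is 96.2 TPM in KO LPS and 147 TPM in WT LPS.

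In order of mean TPM, KO LPS had Socs3 at 96.2, Socs2 at 52.7, Socs1 at 39.0, Socs7 at 26.9, Socs4 at 9.76, Cish at 6.46, Socs6 at 4.77 and Socs5 at 2.88. WT LPS had Socs3 at 147, Socs2 at 41.6, Socs1 at 32.7, Socs7 at 24.6, Socs4 at 10.0, Socs6 at 4.65, Cish at 4.21 and Socs5 at 3.38. Cish and Socs6 thus changed places between genotypes, but their ranges overlapped within each genotype. Socs2 and Socs1 also overlapped in both, and Cish and Socs5 in WT. KO Control had Socs7 at 14.9, Socs4 at 14.4, Socs5 at 11.7, Socs6 at 10.0, Socs2 at 7.31, Socs1 at 6.54, Socs3 at 0.887 and Cish at 0.215 TPM. WT Control had the same order, with Socs7 and Socs4 both at 17.4, Socs5 at 11.9, Socs6 at 10.3, Socs2 at 6.51, Socs1 at 6.09, Socs3 at 1.37 and Cish at 0.0800 TPM. In both Control groups Socs7 overlapped with Socs4 and Socs2 with Socs1, and no other neighbours in the order did. Before stimulation Socs3, the family's most abundant transcript after LPS, was thus rarer than every member but Cish.

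**Figure D2:**
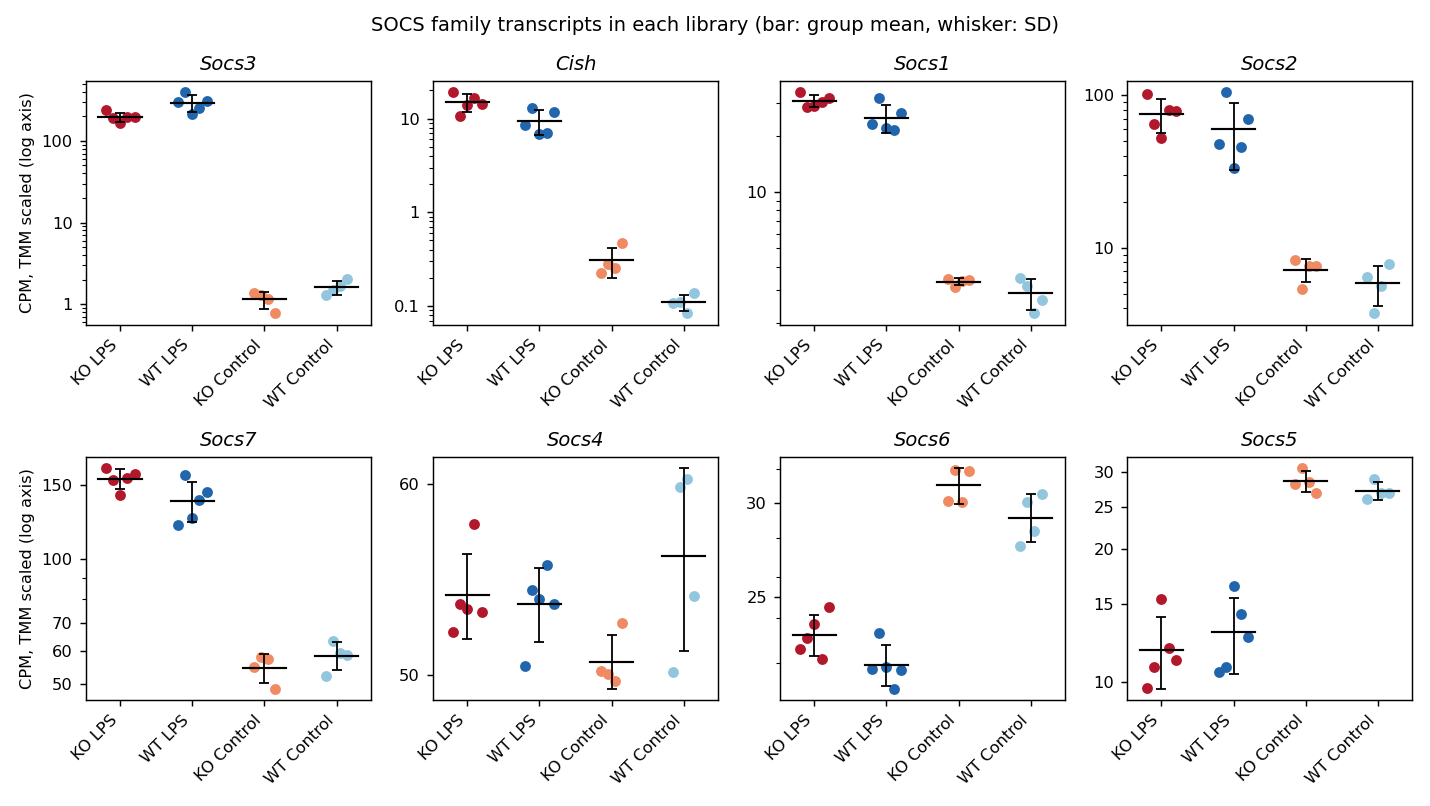
TMM-scaled CPM (log axis, a separate scale for each gene) of each family member in every library, by group, with the group mean and SD. Socs3, Cish, Socs1, Socs2 and Socs7 are higher in every LPS library than in any Control library, Socs5 and Socs6 are lower, and Socs4 overlaps.

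The comparison of LPS with Control asks how stimulation changed these genes. Of the 8 members, 5 rose and 2 fell in KO cells, where 40.0% of all tested genes were called higher and 46.2% lower (edgeR quasi-likelihood test, Benjamini-Hochberg adjusted p under 0.05). The same 5 rose and the same 2 fell in WT cells, where 40.7% of genes were called higher and 44.7% lower. Since most genes were called, the sizes of the changes say more than their number. The members' median log2 fold change was 2.36 in KO and 2.17 in WT, beside -0.10 and -0.06 over all tested genes.

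Socs3, the inhibitor of gp130 signalling, had the highest fold change of the family. Its level was 166, 189, 197, 197 and 236 CPM in KO LPS libraries and 0.771, 1.15, 1.29 and 1.38 CPM in KO Control libraries. That is a log2 fold change of 7.42 ± 0.21 (SE, edgeR adjusted p = 3.5e-17), or 171-fold. In WT it was 216, 249, 298, 309 and 395 CPM with LPS and 1.28, 1.48, 1.69 and 2.04 CPM in Control (7.49 ± 0.21, edgeR adjusted p = 2.2e-17). In both genotypes the lowest LPS library lay far above the highest Control library.

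Cish, which encodes CIS, an inhibitor that binds receptors acting through STAT5, stayed the rarest induced member. It had 10.7, 13.9, 14.2, 16.6 and 19.2 CPM in KO LPS and 0.225, 0.252, 0.281 and 0.468 CPM in KO Control (5.58 ± 0.27, edgeR adjusted p = 1.3e-13). WT LPS libraries had 6.91, 6.98, 8.51, 11.6 and 13.1 CPM, and WT Control libraries 0.0833, 0.109, 0.110 and 0.138 CPM (6.36 ± 0.33, edgeR adjusted p = 4.0e-13). The Control levels rest on few reads, 44 estimated counts over 4 KO libraries and 16 over 4 WT libraries. From those sums the LPS to Control ratio was 48.4 in KO (95% exact interval 35.9 to 66.9) and 84.6 in WT (51.9 to 149), intervals that cover counting error only.

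Socs1, which restrains interferon signalling, averaged 30.7 ± 2.35 CPM in KO LPS and 3.32 ± 0.14 CPM in KO Control (SD; log2 fold change 3.21 ± 0.13 SE, edgeR adjusted p = 5.0e-15). Its WT means were 24.9 ± 4.26 CPM with LPS and 2.89 ± 0.547 CPM in Control (3.11 ± 0.13, edgeR adjusted p = 1.2e-14). Socs2, best known as the inhibitor of growth hormone receptor signalling, varied most between LPS libraries. It ranged from 51.9 to 102 CPM in KO LPS and from 5.34 to 8.25 CPM in KO Control (3.39 ± 0.30, edgeR adjusted p = 1.7e-09). In WT the ranges were 33.3 to 104 CPM and 3.71 to 7.80 CPM (3.35 ± 0.30, edgeR adjusted p = 2.7e-09). Both genes thus rose about as much in KO as in WT cells, near 10-fold with TMM scaling.

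Among the members with long N-terminal regions, Socs4 to Socs7, only Socs7 rose. Socs7, whose product binds adaptor proteins of growth factor and insulin signalling, averaged 155 ± 8.66 CPM in KO LPS and 54.7 ± 4.30 CPM in KO Control (log2 fold change 1.51 ± 0.08, edgeR adjusted p = 5.2e-13). In WT it averaged 137 ± 15.3 CPM and 58.4 ± 4.50 CPM (1.23 ± 0.08, edgeR adjusted p = 1.2e-11). Socs5, a member linked to IL-4 and EGF receptor signalling, fell to 11.8 ± 2.20 CPM in KO LPS, against 28.6 ± 1.57 CPM in KO Control (-1.27 ± 0.12, edgeR adjusted p = 5.0e-09). Its WT values were 12.9 ± 2.52 and 27.2 ± 1.24 CPM (-1.07 ± 0.12, edgeR adjusted p = 6.4e-08). Socs6, which binds the receptor kinase KIT, fell by 0.42 in KO and by 0.41 in WT on the log2 scale (SE 0.05 each, edgeR adjusted p = 1.9e-07 and 2.5e-07). Socs4 stayed between 49.7 and 60.3 CPM in all 18 libraries and was not called in KO (0.09 ± 0.05, edgeR adjusted p = 0.12) or in WT (-0.07 ± 0.05, edgeR adjusted p = 0.25).

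**Figure D3:**
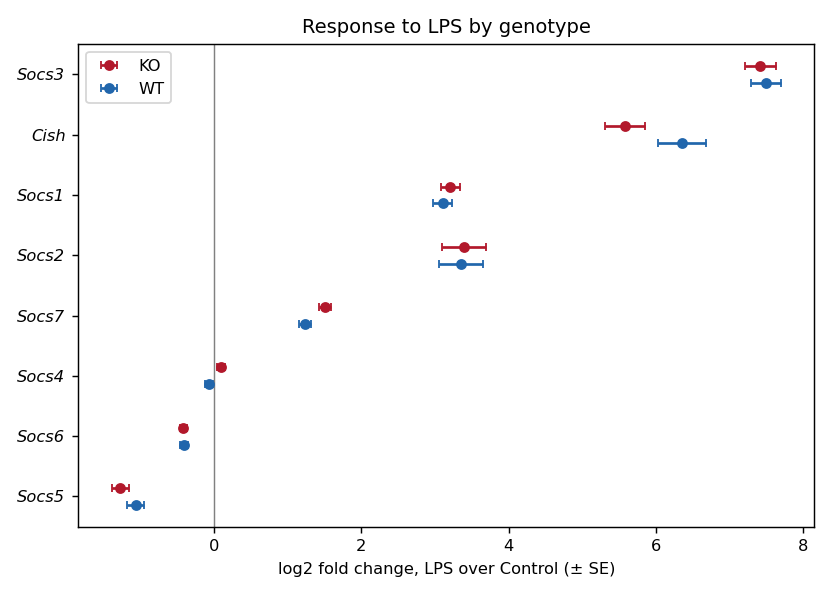
Log2 fold change of LPS over Control (x axis, points with SE bars) for each family member (y axis) in KO and WT cells. Socs3 lies at 7.42 in KO and 7.49 in WT, Socs5 at -1.27 in KO and -1.07 in WT, and the bars of the genotypes lie close together except for Cish and Socs7.

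How libraries are scaled matters for this comparison. With scaling to total counts in place of TMM the median of all tested genes moved by -0.78 in KO and -0.74 in WT, and Socs4 was then called lower in both genotypes, at -0.69 and -0.81. In KO it was called higher with RLE scaling (0.18, edgeR adjusted p = 0.0038), with DESeq2 (0.18, adjusted p = 0.0016) and with only the KO groups in the fit (0.11, edgeR adjusted p = 0.036). Under total-count scaling 22.3% of all calls in KO and 22.1% in WT were higher, against 46.4% and 47.7% with TMM. Directions of the other 7 members did not turn with any scaling, but sizes moved. With total-count scaling Socs1 rose by 2.42 in KO and 2.36 in WT, and Socs2 by 2.60 and 2.58. Socs7 then rose by 0.72 in KO and 0.485 in WT, and Socs6 changed by -1.20 and -1.16.

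Stimulated KO cells were then set against stimulated WT cells. Of the 8 members, Cish rose and Socs3 fell, where 5.30% of tested genes were called higher and 5.50% lower. The members' median log2 fold change was 0.13, beside -0.02 over all tested genes. Socs3 averaged 197 ± 25.2 CPM in KO LPS and 293 ± 68.2 CPM in WT LPS (SD, n = 5 each; log2 fold change -0.58 ± 0.13 SE, edgeR adjusted p = 0.0065). The highest KO library, replicate 1 at 236 CPM, lay above the lowest WT library, replicate 3 at 216 CPM, and the other libraries did not overlap. Cish averaged 14.9 ± 3.15 CPM in KO LPS and 9.42 ± 2.80 CPM in WT LPS (0.67 ± 0.17, edgeR adjusted p = 0.014). Here 1 KO library, replicate 2 at 10.7 CPM, lay below WT LPS replicates 2 and 5 at 13.1 and 11.6 CPM.

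Socs3 was called with any of the 18 libraries left out, at adjusted p values up to 0.0188. Cish no longer passed with KO LPS replicate 1 left out (0.56, edgeR adjusted p = 0.056) and when only the LPS groups were fitted (0.66, edgeR adjusted p = 0.079).

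The other 6 members did not pass between genotypes with LPS. Socs1 had 28.5, 28.8, 30.2, 31.9 and 34.1 CPM in KO LPS and 21.3, 22.0, 23.2, 26.5 and 31.7 CPM in WT LPS (0.30 ± 0.10, edgeR adjusted p = 0.063), with WT LPS replicate 2 as the highest WT library. Socs2 had a log2 fold change of 0.33 ± 0.24 (edgeR adjusted p = 0.42) and Socs7 of 0.18 ± 0.07 (edgeR adjusted p = 0.13). Socs4, Socs5 and Socs6 lay between -0.13 and 0.08. WT LPS replicate 2 was the highest WT library for Socs1, Socs2, Socs3, Cish and Socs7. Without it, Socs1 (0.40, edgeR adjusted p = 0.0012), Socs2 (0.62, edgeR adjusted p = 0.020) and Socs7 (0.23, edgeR adjusted p = 0.013) were called higher in KO as well, Cish stood at 0.81 and Socs3 at -0.44. Genes called over the whole table then numbered 3344, against 1294 with all libraries. That library had the highest sums among WT LPS libraries for cDC2 and plasmacytoid marker lists. They were 215 CPM for 7 cDC2 markers (140 to 168 CPM in the other 4) and 671 CPM for 5 plasmacytoid markers (466 to 516 CPM). The plasmacytoid sum was mostly Bst2 and Tcf4, both higher with LPS (means of 365 and 149 CPM in WT LPS, 33.6 and 30.3 CPM in WT Control). Siglech and Ccr9 of that list were lower with LPS (1.23 and 7.35 against 3.76 and 13.2 CPM), and Ly6d averaged 0.064 CPM in WT LPS. The part of other cells in the levels of this library was not tested. DESeq2 and limma-voom called Socs1 with all libraries (adjusted p = 0.034 and 0.032).

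**Figure D4:**
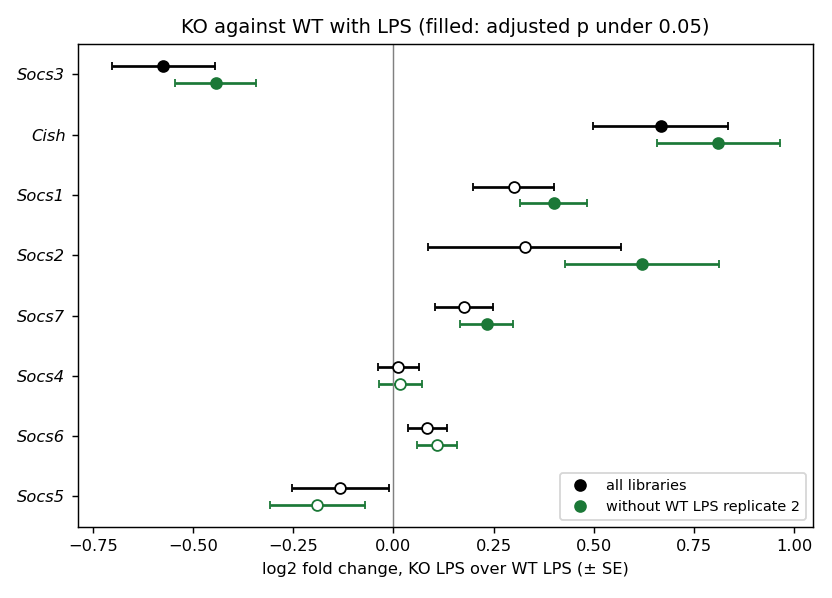
Log2 fold change of KO LPS over WT LPS (x axis, points with SE bars) for each family member (y axis), with all libraries and without WT LPS replicate 2; filled points have an edgeR adjusted p under 0.05. With all libraries Socs3 and Cish are filled, and without that library Socs1, Socs2 and Socs7 are filled too.

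Socs3 and Cish were set against each other within each library, which removes any effect of scaling. The Socs3 count was 11.8, 12.0, 12.3, 13.8 and 17.6 times the Cish count in KO LPS libraries. In WT LPS libraries it was 26.5, 30.2, 31.2, 35.0 and 35.7 times the Cish count. The genotypes did not overlap, and the means were 13.5 ± 2.43 in KO LPS and 31.7 ± 3.74 in WT LPS (SD, n = 5 each). Both genes had the same order of libraries in WT LPS, with replicates 2 and 5 highest and 3 and 4 lowest, and in KO LPS both were highest in replicate 1. As a share of the family's summed TPM, Socs3 made up 39.6% to 41.4% in KO LPS libraries and 52.9% to 57.9% in WT LPS libraries. The ratio and the share restate the 2 called genes, were chosen with those calls known, and carry no test.

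**Figure D5:**
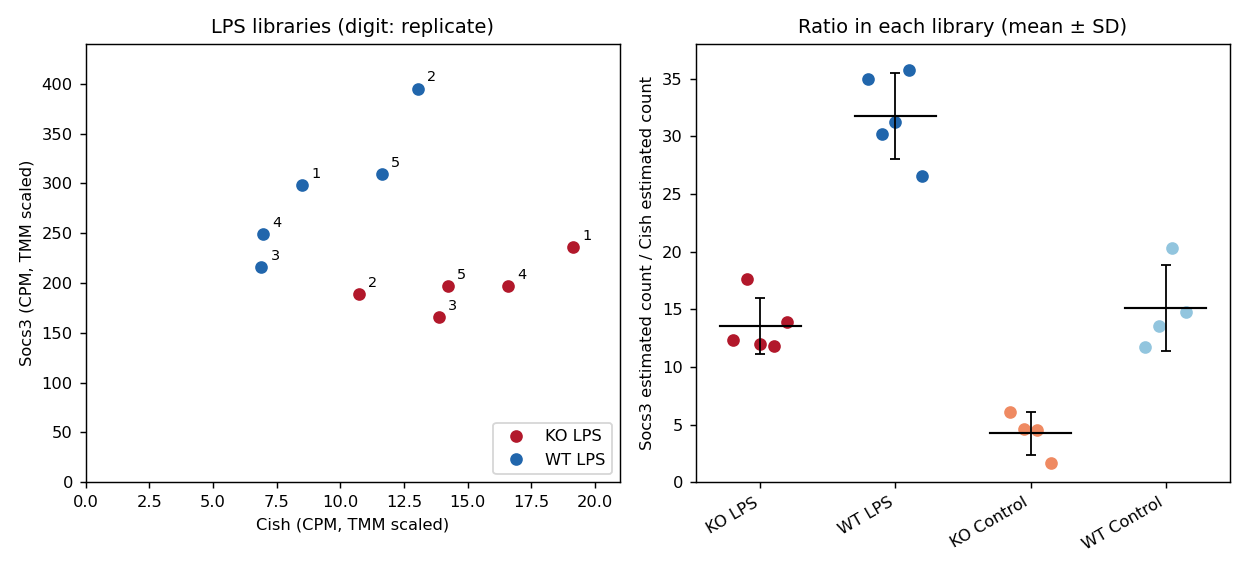
Left, Socs3 against Cish (CPM, TMM scaled) in the 10 LPS libraries, with replicate numbers; right, the ratio of the Socs3 to the Cish estimated count in every library, with mean and SD by group. KO LPS libraries form a band of their own with less Socs3 at a given Cish level, with ratios of 11.8 to 17.6 against 26.5 to 35.7.

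Between genotypes without stimulation no member was called in edgeR, where 1.89% of tested genes were called higher and 0.525% lower. Cish and Socs4 had unadjusted p values under 0.05 in edgeR, as had 1665 of all 11989 tested genes. Among the members limma-voom called none and DESeq2 called 1, Cish (adjusted p = 0.048). Cish had 8, 9, 10 and 17 estimated counts in KO Control libraries and 3, 4, 4 and 5 in WT Control libraries (1.45 ± 0.58, edgeR adjusted p = 0.25). All KO libraries lay above all WT libraries. The ratio of summed counts was 2.80, with a 95% exact interval of 1.55 to 5.31 for counting error only. Cish dropped out of testing when Control libraries were fitted without the LPS libraries, so no edgeR test of it rests on Control libraries alone. How many other genes separate the genotypes in this way was not counted, and no genotype difference of Cish in Control is drawn from these values. Socs3 averaged 1.15 ± 0.269 CPM in KO Control and 1.62 ± 0.324 CPM in WT Control (-0.50 ± 0.28, edgeR adjusted p = 0.46), with overlapping libraries. The Socs3 to Cish ratio was 1.65 to 6.13 in KO Control and 11.8 to 20.3 in WT Control. Socs4 stood at -0.15 ± 0.06 (edgeR adjusted p = 0.23), and the remaining members between -0.10 and 0.29.

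Whether the LPS response itself differed between genotypes was tested as an interaction. No member was called in edgeR, DESeq2 or limma-voom, where edgeR called 1.03% of all tested genes higher and 2.79% lower. Socs7 alone of the members had an unadjusted p under 0.05 in edgeR, beside 2233 of all 11989 tested genes. The difference in response was -0.08 ± 0.31 for Socs3 (edgeR adjusted p = 0.93), -0.78 ± 0.60 for Cish (edgeR adjusted p = 0.51), 0.27 ± 0.11 for Socs7 (edgeR adjusted p = 0.18) and 0.10 ± 0.18 for Socs1 (edgeR adjusted p = 0.81). Cish, with its few Control counts, had the widest SE of the 8 members. Without WT LPS replicate 2, Socs7 was called (0.33, edgeR adjusted p = 0.033). The Socs3 and Cish differences between genotypes with LPS are therefore not shown to be differences in the response to LPS.

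Genes of the pathway around the SOCS family were read from lists chosen with earlier results of these data known. Of 11 JAK kinases and STAT factors, 3 rose and 2 fell in KO with LPS (median 0.145, beside -0.02 over all genes). Over all tested genes 5.30% were called higher and 5.50% lower. With total-count scaling 2 of the 11 rose and 2 fell. Stat5a, one of the paired STAT5 genes, had 786, 871, 998, 1088 and 1320 CPM in KO LPS libraries and 503, 572, 660, 720 and 1018 CPM in WT LPS libraries (0.54 ± 0.16, edgeR adjusted p = 0.039), and Stat5b rose by 0.38 ± 0.10. Stat3 fell by 0.36 (SE 0.07), and Jak3, the kinase of common gamma chain receptors, by 0.84 (SE 0.08). With LPS, KO cells thus had less Stat3 and Socs3 transcript and more Stat5a, Stat5b and Cish transcript than WT cells. Socs2, the other textbook STAT5 target of the family, did not pass (0.33 ± 0.24, edgeR adjusted p = 0.42). Differences were not confined to these genes, as 8 of the 11 JAK and STAT genes had an unadjusted p under 0.05 in edgeR. Without WT LPS replicate 2, 7 of the 11 rose and 2 fell, where 3344 genes of the whole table were called. In Control cells Jak3 fell as well (-0.41 ± 0.09). In the interaction Jak3 was the 1 gene of the 11 called, and was lower (-0.43, SE 0.115, edgeR adjusted p = 0.042). There 2.79% of all tested genes were called lower. With RLE scaling none of the 11 was called in the interaction. With LPS against Control all 11 rose in both genotypes, with medians of 1.95 in KO and 1.59 in WT, and 10 rose in KO with total-count scaling. Over all tested genes 40.0% were called higher in KO and 40.7% in WT, with medians of -0.10 and -0.06.

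Of 26 tested cytokine and growth factor receptors, 3 rose and 5 fell in KO with LPS in edgeR (median 0.04), where 5.30% of all tested genes were called higher and 5.50% lower. Il12rb2, a chain of the IL-12 receptor, rose to 64.6 ± 3.02 CPM in KO LPS, against 41.9 ± 1.51 CPM in WT LPS (0.62 ± 0.08), and Il10ra, the ligand-binding chain of the IL-10 receptor, rose by 0.45 ± 0.10. The IL-21 receptor gene Il21r fell by 0.70 (SE 0.14) and Il4ra, a chain of the IL-4 receptor, by 0.31 (SE 0.07). In Control cells 1.89% of all tested genes were called higher and 0.525% lower in edgeR. Il12rb2 (0.48 ± 0.09) and Kit (0.28 ± 0.06) were the 2 receptors called higher there, and none was called lower. DESeq2 and limma-voom each called 3 higher, edgeR with total-count scaling 1 and without WT LPS replicate 2 it called 5. With LPS against Control, 16 rose and 7 fell in both genotypes (12 and 11 in KO, and 13 and 9 in WT, with total-count scaling), beside 40.0% higher and 46.2% lower over all genes in KO and 40.7% and 44.7% in WT. Il2ra, the high-affinity IL-2 receptor chain, rose by 7.43 ± 0.49 in KO and 7.04 ± 0.50 in WT, and Ifngr1, an interferon gamma receptor chain, changed by -3.35 ± 0.09 in KO and -3.23 ± 0.09 in WT. Lifr, a receptor that pairs with gp130, changed by -3.88 ± 0.17 in KO and -2.94 ± 0.15 in WT, at 0.721 CPM in KO LPS and 1.25 CPM in WT LPS. In the interaction 4 receptors were called lower and none higher (3 lower with RLE scaling), where 2.79% of all genes were called lower. Among them were Il21r (-1.07 ± 0.22, edgeR adjusted p = 0.011) and Lifr (-0.94 ± 0.26, edgeR adjusted p = 0.043). Without WT LPS replicate 2, 8 receptors rose and 7 fell between genotypes with LPS, where 3344 genes of the whole table were called.

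Of 11 tested cytokines that signal through JAK and STAT, 1 rose in KO with LPS, where 5.30% of all tested genes were called higher. This was Il12b, the subunit shared by IL-12 and IL-23 (1.13 ± 0.20, edgeR adjusted p = 0.0011). In Control cells none was called in edgeR, DESeq2 or limma-voom. None had an unadjusted p under 0.05 there, beside 1665 of all 11989 tested genes. Without WT LPS replicate 2, 6 were called higher in KO with LPS, where 3344 genes of the whole table were called. With LPS against Control, 10 rose in both genotypes, with medians of 7.03 in KO and 6.37 in WT. Over all tested genes 40.0% were called higher in KO and 40.7% in WT, with medians of -0.10 and -0.06. Il27, a cytokine that signals through gp130, averaged 63.5 ± 8.55 CPM in KO LPS and 56.3 ± 15.1 CPM in WT LPS, and was under 0.05 CPM in both Control groups. Il6, the founding gp130 ligand, averaged 47.8 ± 10.5 CPM in KO LPS and 37.9 ± 16.5 CPM in WT LPS.

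Among 12 other inhibitors of JAK-STAT signalling, edgeR called 1 lower and none higher in KO with LPS. It called 5.50% of all tested genes lower and 5.30% higher. Of the 12, 4 had an unadjusted p under 0.05, beside 3147 of all 11989 tested genes. DESeq2, limma-voom and edgeR with RLE scaling each called 1 lower and 1 higher, and total-count scaling gave 3 lower. Without WT LPS replicate 2 there were 2 higher and 3 lower, where 3344 genes of the whole table were called. Ptpn1, which encodes the phosphatase PTP1B that acts on JAK2 and TYK2, had 59.6 to 77.2 CPM in KO LPS libraries and 156 to 170 CPM in WT LPS libraries (-1.31 ± 0.06, edgeR adjusted p = 3.8e-11). Its Control means were 67.0 ± 3.44 CPM in KO and 69.5 ± 1.55 CPM in WT, and its response to LPS differed between genotypes (-1.26 ± 0.09, edgeR adjusted p = 9.1e-08). This interaction test passed for Ptpn1 and did not pass for any SOCS gene. Usp18, a brake on the interferon receptor, rose in KO Control (0.79 ± 0.16, edgeR adjusted p = 0.0079). With LPS against Control, 6 of the 12 rose and 3 fell in KO, and 7 rose and 4 fell in WT (5 and 6, and 6 and 5, with total-count scaling). Over all tested genes 40.0% were called higher and 46.2% lower in KO, and 40.7% and 44.7% in WT. Usp18 rose by 6.16 ± 0.17 in KO and 6.59 ± 0.17 in WT, and Cbl, a ubiquitin ligase for receptors and kinases, changed by -1.42 ± 0.10 in KO and -1.46 ± 0.10 in WT.

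The ligase machinery recruited by the SOCS box was also read. All 10 listed partners, among them Elongin C (Eloc) and the NEDD8-conjugating enzyme gene Ube2f, were called higher with LPS in both genotypes. Over all tested genes 40.0% were called higher in KO and 40.7% in WT. The partners' medians were 0.68 in KO and 0.82 in WT, beside -0.10 and -0.06 over all tested genes. But with total-count scaling only 4 partners were called higher and 4 lower in KO, and 4 higher and 3 lower in WT. Ube2f rose by 1.82 ± 0.05 in KO and 1.99 ± 0.05 in WT, and Eloc by 1.60 ± 0.13 and 1.44 ± 0.13. Between genotypes with LPS none was called in edgeR, DESeq2 or limma-voom. Of the 10, 3 had an unadjusted p under 0.05 in edgeR, beside 3147 of all 11989 tested genes. Total-count scaling gave 2 lower. Without WT LPS replicate 2 there were 1 higher and 1 lower, where 3344 genes of the whole table were called. In Control cells none was called by these tools and none had an unadjusted p under 0.05, beside 1665 of all 11989 tested genes.

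Of 28 listed genes for other SOCS box proteins, 15 were tested, and 6 rose and 8 fell with LPS in each genotype (5 and 10 with total-count scaling), shares near those of all tested genes, of which 40.0% were called higher and 46.2% lower in KO and 40.7% and 44.7% in WT. Spsb1, whose product targets inducible nitric oxide synthase, rose to 9.61 ± 1.66 CPM in KO LPS, against 1.55 ± 0.10 CPM in KO Control (2.63 ± 0.28), and Spsb2, a relative with the same target, fell to 1.17 ± 0.291 CPM, against 5.59 ± 0.296 CPM (-2.25 ± 0.17). In WT cells these changes were 2.71 ± 0.28 for Spsb1 and -1.94 ± 0.17 for Spsb2. Asb13 rose with LPS by 2.27 ± 0.06 in KO and 2.38 ± 0.06 in WT and was the 1 gene of this list called between genotypes, in Control cells (0.27 ± 0.07, edgeR adjusted p = 0.033), a call that ended with total-count or RLE scaling. With LPS no gene of this list was called between genotypes in edgeR, and DESeq2 and limma-voom each called 1. Of the 15, 3 had an unadjusted p under 0.05 in edgeR, beside 3147 of all 11989 tested genes.

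Genes with the most similar patterns to Socs3 and Cish were sought by the root mean square difference of log2 CPM, each gene centred on its own mean, among 8935 candidates with a mean of at least 5 CPM. Over the 10 LPS libraries those most like Socs3 were Ifitm1, an interferon-induced membrane protein gene (0.093), Ggta1, a glycosyltransferase gene (0.118), and the lectin receptor gene Clec4a1 (0.139). Ifitm1 averaged 313 CPM in KO LPS and 430 CPM in WT LPS. Those most like Cish were H2-Eb2, an MHC class II beta chain gene (0.109), the calcium-binding protein gene S100a4 (0.115) and Stat5a (0.127). Cish and Stat5a both had KO LPS replicate 1 as their highest and WT LPS replicate 3 as their lowest library. Their likeness includes the genotype difference for which both genes were called, and the library order of H2-Eb2 and S100a4 is not given here. Over all 18 libraries the nearest to Socs3 were the chemokine gene Ccl4 (0.437), the NF-kB regulator gene Nfkbiz (0.482) and Il1a (0.483).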

How the data were processed

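HISAT, Bowtie2 and the build GRCm39 are named, without versions, per the submitters' processing notes. For the annotation and the counter, nothing is given in the sources used here. Per the file headers, the authors deposited 3 values of each gene in every library, an estimated count, a TPM and an FPKM value. The estimated counts deposited by the authors are not normalized, and 6.37% of them are not whole at a tolerance of 0.001. They were rounded for testing. The TPM values deposited by the authors were used to set levels of different genes side by side, and the deposited FPKM values were not used.

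Genes passing edgeR's filter (minimum count 10, minimum total 15) were fitted with edgeR 4.0.16 under R 4.3.3 by quasi-likelihood, with TMM scaling, 1 mean for each of 4 groups and all 18 libraries. The log2 fold changes have SEs derived from the F statistic, and Benjamini-Hochberg adjustment ran over all 11989 tested genes in each of 5 contrasts, with a threshold of 0.05. The common biological coefficient of variation was 0.0934. The code was tested on simulated data. The members, the lists and the tests were chosen with earlier results of these data known. Genes were named by a rule: all members, from each list up to 2 called genes at either end of the fold changes that reach 5 CPM, and the 3 nearest patterns (log2 CPM with a prior count of 2). Alternatives were other scalings, no filter, DESeq2 1.42.0, limma 3.58.1 (voom, and log2 of TPM with a pseudocount of 1), fewer groups, replicate blocks, and each library left out. Sequences are from RefSeq windows of GRCm38.p6, placed on exons with GENCODE annotation of the same build. No coordinates of the counted genes are given, since their build differs. The values of 1 listed gene are not reported here.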

Additional observations from a re-analysis of the deposited data

Results flagged for a closer look

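In 2 of 36 sets of replicates (8 members and the Socs3 to Cish ratio in 4 groups), 1 sample stood far from the rest for the spread of the set, where chance gives about 1 in 20. Both concern Socs4. KO LPS replicate 4 had 57.7 CPM, and the next library of that group 53.5 CPM. KO Control replicate 4 had 52.6 CPM, and the next 50.2 CPM. Both gaps are small beside the level of the gene.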

How the results depend on the processing

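Over 28 alternatives, Socs3 stayed lower in KO with LPS and past the threshold in each (-0.66 to -0.42), and the 7 members called between LPS and Control stayed so in both genotypes. Members called between genotypes with LPS numbered 2, against 1 with only these groups in the fit, 5 without libraries 5 and 7 (replicate 2 of KO LPS and of WT LPS, numbered apart from any Control library), and 1 to 5 with 1 library left out. In Control they numbered 0 (without a test of Cish when Control libraries were fitted alone), and 1 with DESeq2. For the interaction they numbered 0, 1 without libraries 5 and 7, and 0 to 1 with 1 library left out.

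Over the whole table, calls between genotypes with LPS numbered 1294, against 619 with only these groups in the fit, 3238 without libraries 5 and 7 and 805 to 3344 with 1 library left out. In Control they numbered 289, against 494 with DESeq2, 895 with only these groups, 822 without libraries 5 and 7, and 114 to 751. For the interaction they numbered 458, against 792 with DESeq2, 1591 without libraries 5 and 7, and 208 to 1501. Among single left-out libraries, the lowest counts came without KO LPS replicate 1 (with LPS) or WT Control replicate 3, and the highest without WT LPS replicate 2. Of calls between genotypes with LPS, 49.1% were higher in KO, against 23.0% with total-count scaling.

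Direction turned only for values that were not called as reported. Between genotypes with LPS, Socs4 was -0.070 with total-count scaling and -0.034 on log2 TPM (0.01 as reported, -0.013 to 0.026 with a library left out). LPS against Control in KO gave Socs4 -0.69 and -0.52 under those settings, both past the threshold (adjusted p = 1.2e-09 and 5.4e-07). In Control, Socs5 and Socs6 were -0.031 and -0.033 on log2 TPM. In the interaction, Socs6 was 0.033 with RLE scaling, 0.034 with DESeq2, 0.062 on log2 TPM and 0.055 without libraries 5 and 7, Socs3 was 0.10 without libraries 5 and 7, and Cish was 0.36 on log2 TPM, where its Control values lie below the pseudocount of 1. With a library left out, interactions ranged from -0.13 to 0.33 for Socs2, -0.0047 to 0.20 for Socs1, -0.23 to 0.055 for Socs3 and -0.027 to 0.020 for Socs6. The causes were not tested.

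Same-numbered KO and WT libraries of a treatment had 3 of 9 correlations over 0.1. All 9 were positive (0.0092 to 0.353, median 0.071), and 32 pairs of other numbers had a median of -0.055 (-0.333 to 0.211). Of 18 libraries, 7 correlated best with their own number. WT LPS and WT Control libraries of the same set of consecutive numbers correlated over 0.1 in all 4 pairs (0.14 to 0.273), and those of KO in 2 of 4 (-0.031 to 0.136). With those sets as a replicate block the 7 members called between LPS and Control stayed 7 in both genotypes. With a replicate block of consecutive library numbers, 3 members were called between genotypes with LPS, Socs1 being added (0.31, edgeR adjusted p = 0.029). Genes called in all were then 1915, against 1294 without a block (614 against 289 in Control and 882 against 458 for the interaction). With a replicate block of title numbers 2 members were called between genotypes with LPS. Counting error limits Cish in Control libraries.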

Other observations

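Ratios were also taken between other pairs of Cish, Socs1, Socs2 and Socs3. With LPS, the Socs3 count was 5.76 to 6.91 times the Socs1 count in KO libraries and 9.81 to 12.8 times in WT libraries, and 2.32 to 3.20 times the Socs2 count in KO and 3.78 to 6.49 times in WT, so neither overlapped. The Socs2 count was 3.74 to 6.04 times the Cish count in KO LPS and 4.82 to 7.99 times in WT LPS, and the Socs1 count 1.78 to 2.65 times in KO LPS and 2.28 to 3.18 times in WT LPS, both overlapping. In Control the Socs1 count was 7.24 to 15.3 times the Cish count in KO libraries and 19.2 to 32.0 times in WT libraries, without overlap, on few Cish counts. The remaining Control ratios overlapped between genotypes. Socs3 to Socs1 was 0.228 to 0.414 in KO and 0.367 to 0.771 in WT, and Socs3 to Socs2 was 0.102 to 0.242 and 0.2 to 0.4. Socs2 to Cish was 16.2 to 36.6 in KO Control and 33.8 to 67.0 in WT Control. Ratios with Socs4 to Socs7 were not computed.

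Over all 18 libraries, the genes most like the remaining members were Adora2a, an adenosine receptor gene, for Socs2 (root mean square difference 0.111), Mthfs for Socs1 (0.142), Chd2 for Socs7 (0.0496), Slc27a4 for Socs5 (0.0971), Zhx1 for Socs6 (0.0668), Zbtb33 for Socs4 (0.0726) and Ifit1bl1 for Cish (0.291). Adora2a averaged 47.1 CPM in KO LPS, 36.7 CPM in WT LPS, 3.98 CPM in KO Control and 3.29 CPM in WT Control, so its 18 values followed those of Socs2 closely at a lower level.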
